A study of Mus musculus with 72 samples.

Results

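The comparison described here set dorsal hippocampus taken after shock given with a cue against dorsal hippocampus taken straight from the home cage, in male mice labelled C57BL_6J. The members were the 6 libraries whose labels give dorsal hippocampus, genotype C57BL_6J and treatment Shock_Cue, and the 6 with the same tissue and genotype and treatment HomeCage, 12 of the 72 libraries of the series. The whole series paired 2 hippocampal regions and 2 substrain labels with 3 conditions (home cage, cue alone, shock with cue) at 6 libraries a group, and bulk messenger RNA was counted in each. Tissue of the shock and cue group was collected 30 min after conditioning. No allele, transgene or drug is named for any group, age is not stated in the labels, and no group was handled without receiving the cue. A difference from the home cage therefore covers handling, chamber, cue and shock together, and these cannot be told apart in it.

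Fear conditioning pairs a neutral cue with a foot shock, and the dorsal hippocampus is needed for the memory of the place where the shock was given. Strong synaptic input raises calcium and cyclic AMP in neurons, and kinases then act on transcription factors already in the nucleus, such as CREB and SRF. Within minutes these switch on immediate early genes, which need no new protein for their own induction. Some of these genes encode further transcription factors, some encode proteins that act at the synapse, and some encode inhibitors of the kinases that switched them on. Stress also releases corticosterone, which acts through the glucocorticoid receptor on a separate set of target genes.

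The promoters of 6 of the 12 rising genes with the smallest p are shown, because CREB binds the cyclic AMP response element (CRE) and its half-site TGACG. All 6 encode transcription factors. Sequences are from RefSeq on GRCm38.p6, run 5′ to 3′ on the gene's strand, and cover up to 250 bases before the start of transcription, stopping short of any annotated exon. Capitals mark TGACG, or CGTCA where the half-site lies on the other strand.

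Fos (chr12:85473640-85473889, plus strand): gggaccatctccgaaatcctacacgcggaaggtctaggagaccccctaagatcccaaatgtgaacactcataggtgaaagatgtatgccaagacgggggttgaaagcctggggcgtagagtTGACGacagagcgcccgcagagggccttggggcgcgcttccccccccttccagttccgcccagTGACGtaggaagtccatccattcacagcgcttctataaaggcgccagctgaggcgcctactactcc

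Nr4a1 (chr15:101266596-101266845, plus strand): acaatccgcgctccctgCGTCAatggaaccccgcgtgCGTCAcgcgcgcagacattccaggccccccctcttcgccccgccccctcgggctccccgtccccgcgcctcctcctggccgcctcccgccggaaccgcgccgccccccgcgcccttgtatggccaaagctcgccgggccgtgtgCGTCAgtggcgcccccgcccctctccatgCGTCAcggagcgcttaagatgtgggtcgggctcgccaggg

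Egr4 (chr6:85513590-85513839, minus strand): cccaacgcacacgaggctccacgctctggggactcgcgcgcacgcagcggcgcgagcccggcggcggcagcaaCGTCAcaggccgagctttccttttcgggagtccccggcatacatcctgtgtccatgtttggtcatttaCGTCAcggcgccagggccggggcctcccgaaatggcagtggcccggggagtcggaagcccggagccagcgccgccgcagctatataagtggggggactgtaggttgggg

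Fosb (chr7:19310052-19310295, minus strand): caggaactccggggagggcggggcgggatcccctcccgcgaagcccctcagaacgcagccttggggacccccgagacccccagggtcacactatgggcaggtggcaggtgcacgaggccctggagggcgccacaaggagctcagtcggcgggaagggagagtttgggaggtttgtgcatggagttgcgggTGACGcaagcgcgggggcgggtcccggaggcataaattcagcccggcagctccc

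Junb (chr8:84978749-84978998, minus strand): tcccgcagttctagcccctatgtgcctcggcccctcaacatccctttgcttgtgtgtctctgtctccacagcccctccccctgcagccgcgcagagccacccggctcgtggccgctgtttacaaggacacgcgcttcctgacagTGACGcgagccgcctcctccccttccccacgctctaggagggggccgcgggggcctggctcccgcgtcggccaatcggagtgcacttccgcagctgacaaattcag

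Egr2 (chr10:67535249-67535474, plus strand): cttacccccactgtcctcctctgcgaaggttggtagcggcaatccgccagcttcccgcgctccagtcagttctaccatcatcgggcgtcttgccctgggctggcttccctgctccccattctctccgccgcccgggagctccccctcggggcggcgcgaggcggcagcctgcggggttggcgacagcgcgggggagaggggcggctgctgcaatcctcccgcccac

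The Nr4a1 window held 4 half-sites, the Fos and Egr4 windows 2 each, the Fosb and Junb windows 1 each, and the Egr2 window shown none. RefSeq lists 5 windows for Egr2, and the other 5 genes have 1 each. Counted on both strands in windows of 250 bases, at least 1 half-site was present for 25.3% of the 12869 tested genes with a RefSeq window, at least 2 for 6.49% and at least 4 for 0.28%. The full element TGACGTCA, which contains a half-site on each strand, was present for 2.56% of these genes and for none of the 6 shown. Of the other rising genes searched, Arl5b held this full element and a further half-site, Per1 held 1 half-site and Tiparp none. The Arl5b and Per1 windows belong to starts 5925 and 3732 bases from the outermost annotated start, and all 250 bases of the Tiparp window lie in annotated exons. Egr1 was not searched, and Arc and 1700016P03Rik had no window. The sequence GCGNGGGCG, bound by EGR proteins, lay in the Nr4a1, Fosb and Arl5b windows and in 8.42% of all windows. No match to TGANTCA (AP-1) or to the serum response element was found in the 6 windows, which says only that these letters are not there. The Nr4a1 window belongs to a start that lies inside the gene, 12577 bases from the outermost annotated start. A share over all rising genes is not given, since only 167 of 252 (66.3%) had a window.

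Shock with the cue was followed by higher transcript levels of the classical immediate early genes, with Egr2 at 8.52 times, Fos at 5.54 times and Arc at 3.34 times the home cage level. Of 19647 genes tested with edgeR's quasi-likelihood test (Benjamini-Hochberg adjusted p under 0.05), 345 passed (1.76%), 252 higher (1.28%) and 93 lower (0.473%). An unadjusted p under 0.05 was found for 2859 genes (14.6%). Most of the differences were small: 252 of the 345 had an absolute log2 fold change under 0.5, 20 were above 2-fold and 5 below 1/2. In 218 of the 345 the groups did not overlap at all. Over all genes tested, every shock and cue library lay above every home cage library for 272 (1.38%) and below for 132 (0.672%). The median log2 fold change over all genes was -2e-04. The count of passing genes moved with the libraries used: it was 213 without shock and cue library 33A, 219 without home cage library 35C and 225 without shock and cue library 31B.

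**Figure D1:**
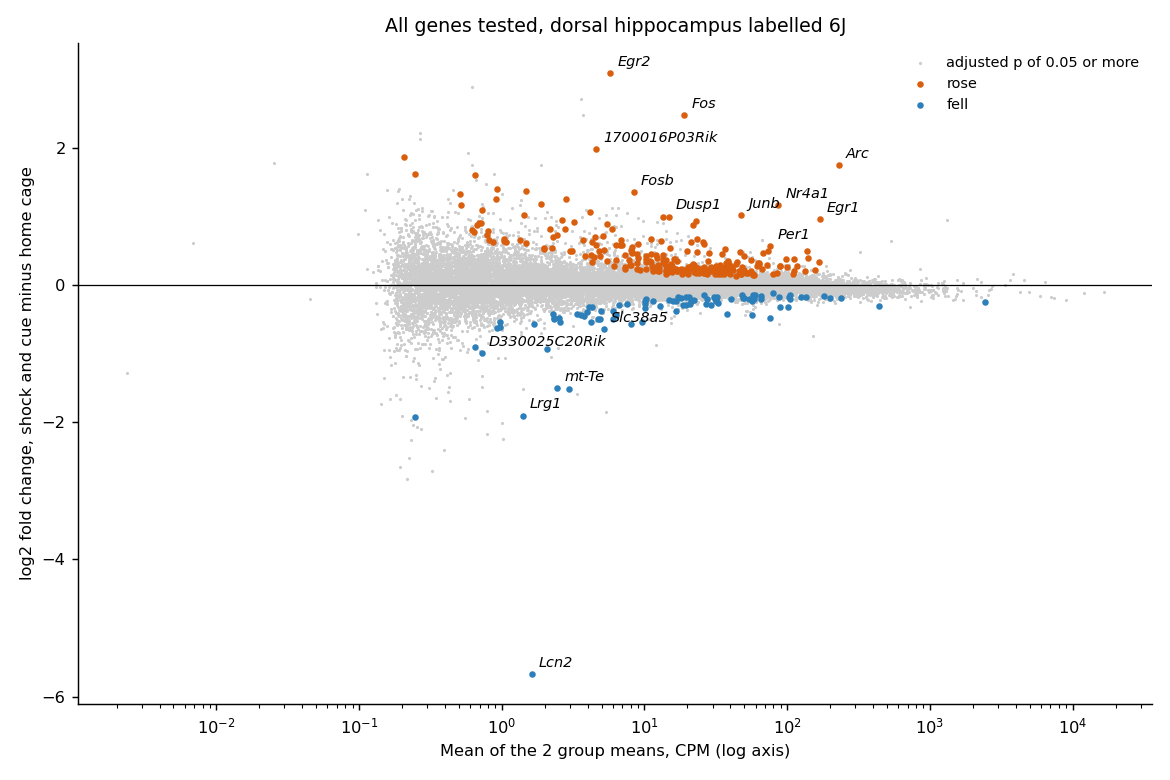
Log2 fold change of every gene tested (shock and cue minus home cage, vertical axis) against the mean level in CPM (horizontal log axis). Orange points rose and blue points fell at an adjusted p under 0.05; Egr2, Fos, 1700016P03Rik and Arc lie highest, and Lcn2 lies lowest at -5.67.

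Total gene counts ran from 32012867 to 37272920 in the 12 libraries, and mitochondrial genes took 5.96% to 8.76% of them. Whether each library is a mouse of its own is not said in the labels. The p-values therefore set each group difference against the spread between libraries, which may not be that between mice. For this comparison the spread was estimated over all 36 dorsal libraries. Each group held 2 code numbers (31 and 33 for shock and cue, 35 and 36 for home cage), and what a number stands for is not stated. No number occurs in both groups, so a difference between numbers cannot be told apart from the condition. Leaving out all libraries of any of these numbers gave fewer passing genes than leaving out any single library. Nnt, which encodes nicotinamide nucleotide transhydrogenase and is known to be partly deleted in C57BL/6J, was at 36.2 to 41.5 CPM here and at 18.3 to 22.9 CPM in the dorsal libraries labelled 6NJ, which is against the labels, so libraries are named by label. Markers of dentate granule cells, CA1 and CA2 and CA3 pyramidal cells were detected in all 12 libraries, and of the 165 tested members of 16 marker lists of cell types and neighbouring tissues 0 rose and 1 fell in edgeR, with 22 at an unadjusted p under 0.05, beside 14.6% of all genes. Choroid plexus markers varied between libraries, with summed levels of 253 to 8390 CPM after shock and cue and 257 to 4490 CPM in the home cage. Their 12 members had a median log2 fold change of 0.77 with 0 passing, and with their summed level as a covariate 298 genes passed. In bulk tissue, fewer cells of a type and less RNA per cell cannot be told apart.

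The rapid transcription factors rose most. Of 28 tested members of the list (Fosl1 was too low to test), 19 rose and 0 fell, beside 1.28% and 0.473% of all genes. The median log2 fold change was 0.52. Members of this and the other lists were chosen with earlier results of these data known. Their counts therefore describe the members and are no independent test of a list. Egr2, a zinc finger factor also known as Krox20, was at 8.15, 9.31 and 14.3 CPM (lowest, median and highest of 6) after shock and cue and at 0.627, 1.24 and 1.83 CPM in the home cage. The groups were far apart, with the lowest shock and cue library more than 4 times the highest home cage library, and the log2 fold change was 3.09 ± 0.222 (SE, adjusted p = 1.68e-11). Fos, a partner in the AP-1 dimer, was at 25.6, 31.9 and 39.1 CPM against 3.16, 5.67 and 7.77 CPM. It did not overlap between groups either, at 2.47 ± 0.24 (adjusted p = 4.4e-08). Its relative Fosb was at 10.3, 11.8 and 14.1 CPM against 3.57, 4.95 and 5.43 CPM, a log2 fold change of 1.35 ± 0.134.

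Nr4a1, an orphan nuclear receptor, was at 97, 118 and 143 CPM after shock and cue and 46.6, 53.3 and 62 CPM in the home cage (log2 fold change 1.17 ± 0.0931, adjusted p = 1.63e-10). Junb, the AP-1 partner of Fos, was at 54.1, 62.9 and 77 CPM against 27.9, 32.1 and 34.7 CPM, again without overlap (1.02 ± 0.0943, adjusted p = 5.22e-09). Egr1, also known as Zif268, was at 183, 208 and 289 CPM against 92.5, 115 and 143 CPM (0.96 ± 0.112). Within each of these families the members differed in size. Egr4 rose by 0.94 ± 0.103 and Egr3 by 0.37 ± 0.0679, far less than Egr2, and Egr3 overlapped between groups (104 to 144 CPM against 85 to 115 CPM). The other Nr4a receptors also rose less than Nr4a1, Nr4a2 by 0.47 ± 0.0874 and Nr4a3 by 0.37 ± 0.0766. Fosl2 rose by 0.53 ± 0.101, whereas Jun, the usual partner of Fos, was at 61.4 to 79.3 CPM against 57.9 to 83.3 CPM and did not pass (0.07 ± 0.0906, adjusted p = 0.786). These differences between relatives were not tested against each other.

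Among the remaining members of the list, Ier2 (0.82 ± 0.135), Atf3 (0.67 ± 0.174), the antiproliferative factor Btg2 (0.63 ± 0.132), Csrnp1 (0.60 ± 0.0819), the Krüppel-like factors Klf2 (0.56 ± 0.101) and Klf4 (0.51 ± 0.104) and the cyclic AMP modulator Crem (0.22 ± 0.0583) rose, with adjusted p from 1.39e-05 to 0.0451. Npas4, a neuron-specific factor driven by calcium, was at 19.2, 22.1 and 25.7 CPM against 12.6, 14.2 and 24 CPM. Home cage libraries 35C and 36C, at 24 and 20 CPM, lay in the shock and cue range, and Npas4 did not pass (0.44 ± 0.146, adjusted p = 0.126). Klf10, Ier5, Maff, Myc, Hes1, Id1 and Cebpb did not pass, with log2 fold changes from -0.14 for Hes1 to 0.29 for Klf10. Libraries of the shock and cue group were not equally high across the 19 rising factors: 31C was the highest of the 6 for 10 of them and 33A for 5, while 33B was the lowest for 10 and 33C for 5. Without code number 31, which left 3 shock and cue libraries, 11 members passed, and without code number 35 14 did.

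**Figure D2:**
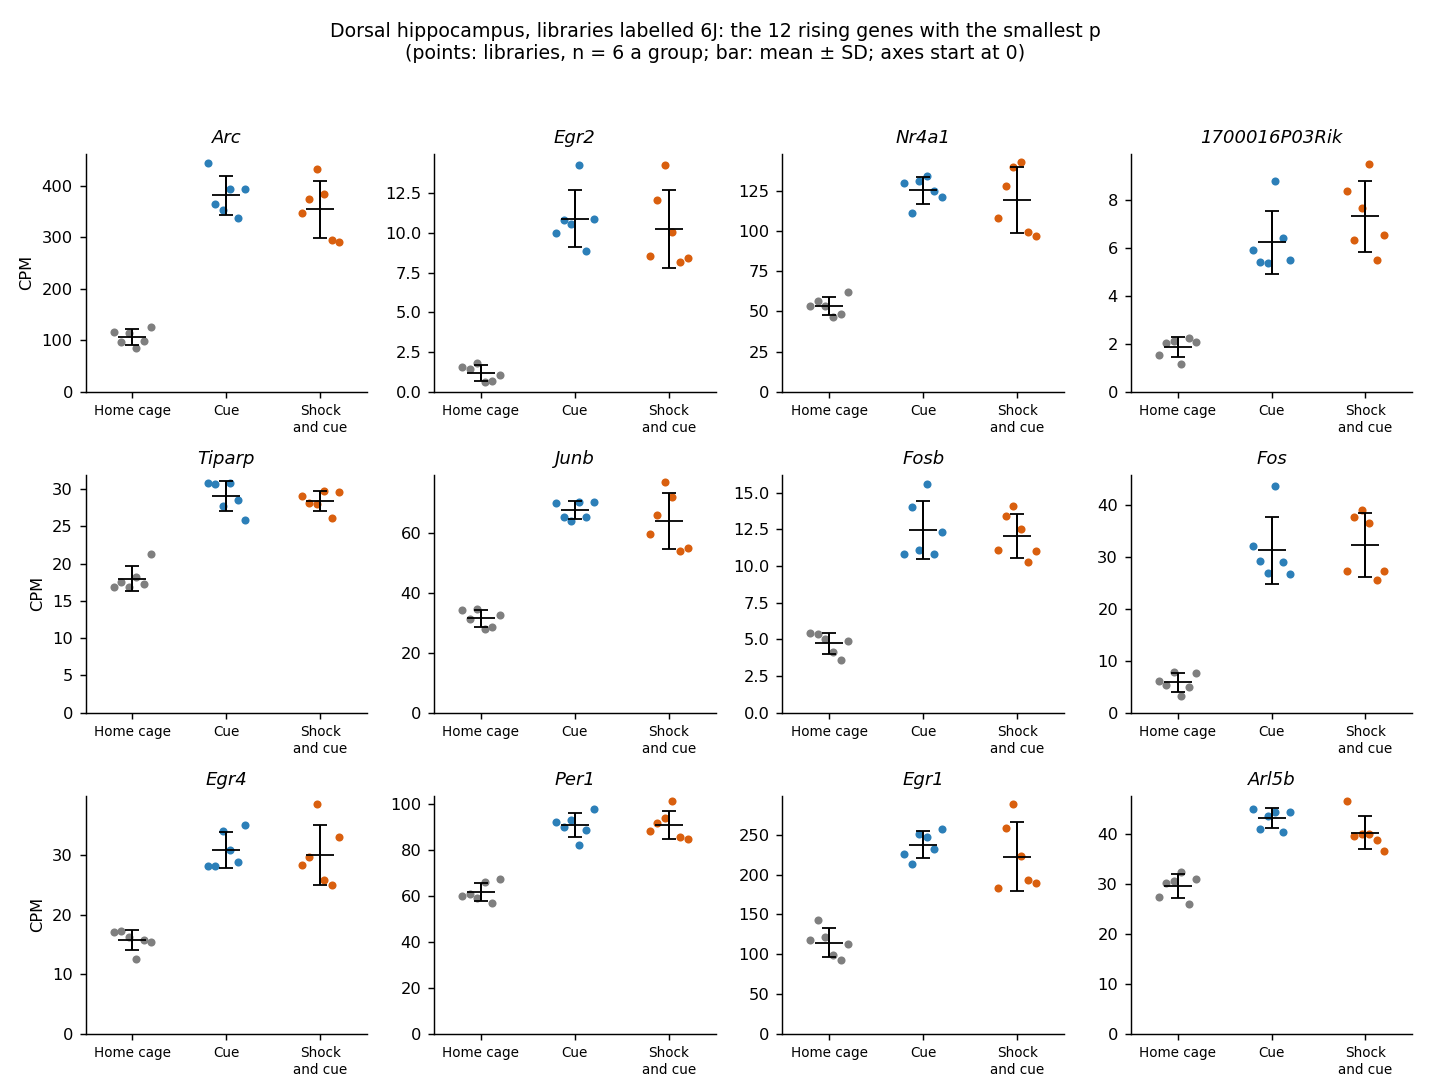
Level in CPM (vertical axes, from 0) of the 12 rising genes with the smallest p in each library labelled 6J of the dorsal hippocampus; grey is home cage, blue cue, orange shock and cue, and bars give the mean ± SD of 6 libraries. In all 12 panels the orange points lie above the grey ones, and the blue points lie in the range of the orange ones or close to it.

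The list of synaptic and secreted effectors, which also holds some intracellular enzymes and regulators, rose in part. Of its 30 tested members 9 rose and 1 fell, beside 1.28% and 0.473% of all genes, with a median log2 fold change of 0.16. Arc, which encodes a cytoskeletal protein that removes AMPA receptors from synapses, was at 290, 360 and 432 CPM after shock and cue and 84.5, 106 and 126 CPM in the home cage. The ranges were well separated, and the log2 fold change was 1.74 ± 0.121 (adjusted p = 1.68e-11). Ccn1, a secreted matrix protein, was at 4.2, 5.31 and 7.28 CPM against 2.25, 2.71 and 3.03 CPM (1.06 ± 0.142, adjusted p = 8.64e-06). Tiparp, an ADP-ribosyltransferase, was at 26.1, 28.6 and 29.8 CPM against 16.9, 17.4 and 21.3 CPM, a smaller difference with a narrow spread (0.66 ± 0.0592, adjusted p = 9.02e-10). Arl4d (0.66 ± 0.0993), Homer1 (0.49 ± 0.0827), Gpr3 (0.49 ± 0.0959), the DNA repair and demethylation factor Gadd45b (0.45 ± 0.0815), the kinase Plk3 (0.41 ± 0.0795) and Nedd9 (0.35 ± 0.0676) also rose.

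The neurotrophin Bdnf did not pass as a gene, at 43.1, 49.1 and 57.1 CPM against 35.7, 47.1 and 51.3 CPM (0.13 ± 0.0845, adjusted p = 0.522). Nptx2, Vgf, Inhba, Nrn1, Scg2, Rgs2, Plk2 and the prostaglandin synthase Ptgs2 did not pass either. Pcsk1, a protease that processes prohormones, was at 20 to 35 CPM against 16 to 21.5 CPM and missed the threshold (0.57 ± 0.161, adjusted p = 0.0592). The member that fell was Lingo3, a leucine-rich repeat membrane protein, at 40.9 to 53.2 CPM against 61 to 71.7 CPM (-0.44 ± 0.118, adjusted p = 0.0453). Bdnf receptors and cyclic AMP signalling genes, which stand upstream of the response, showed 0 of 15 members passing in edgeR (2 at an unadjusted p under 0.05, beside 14.6% of all genes) and 0 in DESeq2. Ntrk2, the receptor of Bdnf, had a log2 fold change of 0.00 ± 0.0439.

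Estimated counts of transcripts resolved the small rise of Homer1 into forms that differed widely. Homer1 encodes a postsynaptic scaffold whose long forms link glutamate receptors to internal calcium stores. Short forms made after activity lack the coiled coil and break these links. Homer1-205, of 6 exons and 203 codons in GENCODE vM21, was at 7.43, 13.1 and 14.1 CPM after shock and cue and at 0, 0.422 and 0.982 CPM in the home cage. It was near 0 in the home cage and present in all 6 shock and cue libraries, with a log2 fold change of 4.70 ± 0.388 (adjusted p = 2.7e-09). Homer1-204, of 5 exons and 186 codons, was at 45.6, 58.2 and 77.7 CPM against 24.8, 28.9 and 39.3 CPM (1.02 ± 0.15, adjusted p = 0.000282). The long forms did not pass. Homer1-202, of 370 codons, was at 49.8 to 57.6 CPM against 48.1 to 58.1 CPM (0.05 ± 0.0684, adjusted p = 0.957), and Homer1-203, of 366 codons, had a log2 fold change of -0.09 ± 0.17. Not every form with few codons rose. Homer1-206, of 233 codons, was at 2.56 to 5.79 CPM against 3.53 to 5.6 CPM (-0.03 ± 0.204, adjusted p = 0.994). Homer1-207, of 193 codons, had a log2 fold change of -0.05 ± 0.288 (adjusted p = 0.994). Forms are told apart here by exons and codons, and whether each one with few codons lacks the coiled coil was not checked. The difference between the forms was not tested as such, and reads shared by transcripts are divided by the estimation.

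**Figure D3:**
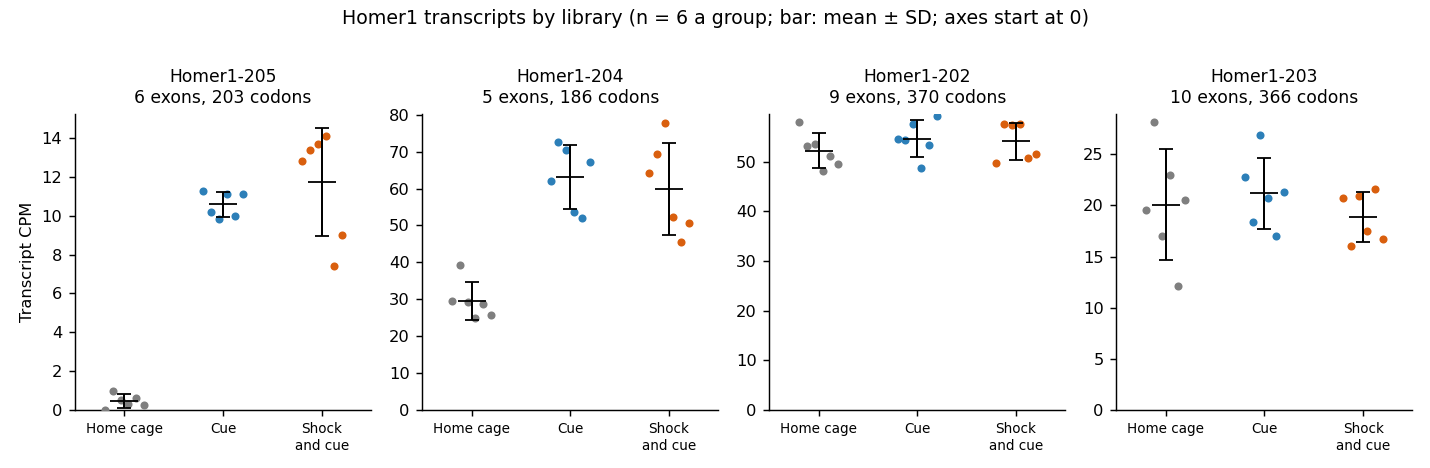
Estimated level in CPM (vertical axes, from 0) of 4 Homer1 transcripts in each library, with bars for the mean ± SD of 6. Homer1-205 and Homer1-204 are higher after shock and cue and after the cue than in the home cage, and the ranges of the long forms Homer1-202 and Homer1-203 overlap in the 3 groups.

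In the transcript table, 147 of 56523 passed (0.26%), 123 higher (0.218%) and 24 lower (0.0425%). Nr4a1-201 had the smallest p, with 77.4 to 119 CPM against 28.1 to 37.9 CPM (1.57 ± 0.1, adjusted p = 8.74e-12), while Nr4a1-202, at 7.47 to 14.9 CPM against 12.2 to 16.8 CPM, did not pass (-0.48 ± 0.27, adjusted p = 0.667). Fosb-201 (1.58 ± 0.332, adjusted p = 0.0242), Arc-201 (1.73 ± 0.133) and Arc-202 (1.72 ± 0.143) also rose. Of the 8 Bdnf transcripts tested 0 passed in edgeR. Bdnf-205 was lower (-0.432 ± 0.202, unadjusted p = 0.0401) and Bdnf-210 higher (1.165 ± 0.565, unadjusted p = 0.0475). Bdnf-209 came nearest, at 6.65 to 11.7 CPM against 4.34 to 7.06 CPM (0.66 ± 0.203, adjusted p = 0.201). The transcripts of Crem, Ntrk2, Pde4b and Rgs4 did not pass, and neither did Per1-201 (1.22 ± 0.314, adjusted p = 0.0901). Among transcripts that fell were the retained-intron form Las1l-203 (-1.35 ± 0.23, adjusted p = 0.00253) and H3f3b-202 of a histone H3.3 gene (-0.65 ± 0.125, adjusted p = 0.013).

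The rising gene 1700016P03Rik is a non-coding host transcript on chromosome 11 (75172560 to 75177633, plus strand). By RefSeq coordinates on GRCm38.p6 it contains 4 mature microRNAs of the miR-212 and miR-132 hairpins, a pair known as CREB-responsive in neurons. They are printed with the seed, bases 2 to 8, in capitals.

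miR-132-3p (chr11:75173723-75173744, plus strand): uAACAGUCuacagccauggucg

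miR-212-3p (chr11:75173443-75173464, plus strand): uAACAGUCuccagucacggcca

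miR-132-5p (chr11:75173686-75173707, plus strand): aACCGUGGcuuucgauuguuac

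miR-212-5p (chr11:75173403-75173425, plus strand): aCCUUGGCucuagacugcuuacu

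miR-132-3p and miR-212-3p share the seed AACAGUC, whereas the 5p arms have seeds of their own. The host was at 5.49, 7.1 and 9.51 CPM after shock and cue and at 1.14, 2.05 and 2.25 CPM in the home cage, without overlap. The log2 fold change was 1.98 ± 0.164 (adjusted p = 1.63e-10). Mature microRNAs are not captured by messenger RNA libraries and were not measured. The gene overlaps Ovca2 on the opposite strand, and the strand setting of the counting is not given in the sources used here.

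The list of negative feedback regulators of MAP kinase signalling also holds regulators of other pathways, such as Sik1 and Nab2. Of its 22 tested members 9 rose and 0 fell in edgeR, beside 1.28% and 0.473% of all genes. The median log2 fold change was 0.17. DESeq2 called 9 higher and 1 lower. Sik1, a salt-inducible kinase that restrains CREB coactivators, was at 13.9, 17.6 and 21.2 CPM against 6.64, 9.12 and 10.4 CPM (0.99 ± 0.131, adjusted p = 1.22e-05). Dusp1, a phosphatase that inactivates MAP kinases, was at 15.4, 18.2 and 28 CPM against 8.49, 10.2 and 11.2 CPM (0.99 ± 0.183, adjusted p = 0.00191). Both were without overlap, and library 33A was the highest for Dusp1. The phosphatases Dusp5 (0.63 ± 0.119) and Dusp6 (0.47 ± 0.0854), the pseudokinase Trib1 (0.64 ± 0.0912), Spry4 (0.54 ± 0.0856) and Spred1 (0.22 ± 0.0468) of the Sprouty family, the ErbB inhibitor Errfi1 (0.29 ± 0.0581) and the EGR corepressor Nab2 (0.26 ± 0.0624) rose as well. Dusp2, at a median of 0.63 CPM against 0.92 CPM, was lower in every shock and cue library but did not pass (-0.62 ± 0.21, adjusted p = 0.135). Without code number 36, 4 members rose and 1 fell, and without code number 31 5 rose.

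Glucocorticoid targets rose in 8 of 28 members, with 0 falling in edgeR, beside 1.28% and 0.473% of all genes. The median log2 fold change was 0.04. DESeq2, and edgeR with only the groups compared, each called 9 higher and 1 lower. Per1, a clock repressor that glucocorticoids and CREB both induce, was at 84.5, 89.8 and 101 CPM against 56.8, 60.3 and 67 CPM (0.56 ± 0.0667, adjusted p = 9.19e-07). Ddit4, an inhibitor of mTOR, was at 53.6, 56.4 and 63.6 CPM against 37.4, 43.2 and 48.1 CPM (0.41 ± 0.0527, adjusted p = 3.13e-06). Sgk1, the serum and glucocorticoid regulated kinase, was at 78.1, 84.1 and 97.2 CPM against 52.1, 59.4 and 76.5 CPM (0.49 ± 0.105, adjusted p = 0.00789). None of these overlapped between groups. Cdkn1a (0.66 ± 0.132), Nfkbia (0.49 ± 0.0792), the pyruvate dehydrogenase kinase Pdk4 (0.44 ± 0.083), Dusp1 and Errfi1 complete the 8, and the last 2 also belong to the feedback list.

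Other standard targets of the receptor did not pass in the edgeR fit of all 36 dorsal libraries. Tsc22d3, which encodes GILZ, was at 56.1 to 68.5 CPM against 43.5 to 53.1 CPM (0.35 ± 0.0997, adjusted p = 0.0693). Fkbp5, a cochaperone of the receptor, lay in the other direction, at 46.9 to 56.4 CPM against 56.6 to 71.9 CPM (-0.29 ± 0.088, adjusted p = 0.0811). Both were without overlap. Zbtb16, Klf9, Mt1 and Mt2 overlapped and did not pass, nor did the receptors Nr3c1 (0.16 ± 0.0592, adjusted p = 0.17) and Nr3c2. Without code number 35, which left 3 home cage libraries, 4 members rose. Of 21 clock genes 3 rose (Per1, Nfil3 at 0.48 ± 0.0931 and Per2 at 0.31 ± 0.0838), beside 1.28% of all genes. Dbp and Nr1d1 did not pass (-0.40 ± 0.154 and -0.23 ± 0.0841). Per2 was close to the threshold (adjusted p = 0.0474), and 2 clock genes rose when any library other than 35B was left out.

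**Figure D4:**
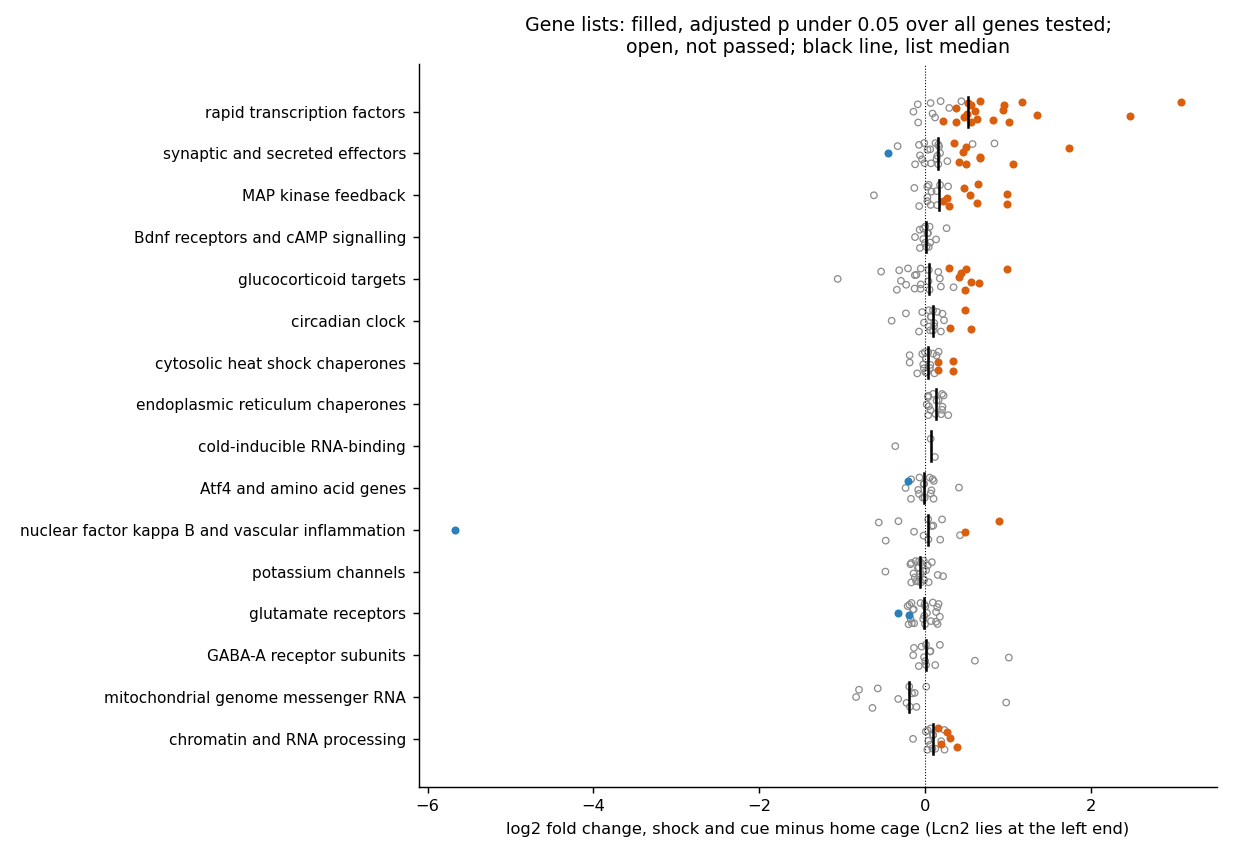
Log2 fold change (shock and cue minus home cage, horizontal axis) of every tested member of the 16 lists of function, with 1 point a gene and a black line at the list median. Filled points passed at an adjusted p under 0.05; in the first 3 lists and among the glucocorticoid targets they lie to the right, except Lingo3 at -0.44, and Lcn2 is the point at -5.67.

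Smaller numbers passed in other lists, to be read beside the 1.28% of all genes that rose and the 0.473% that fell. Of 19 genes of chromatin and RNA processing 5 rose: the splicing kinases Clk1 (0.39 ± 0.0719) and Clk4 (0.27 ± 0.0593), the splicing factors Srsf7 (0.20 ± 0.0427) and Srsf3 (0.16 ± 0.0401), and the histone demethylase Kdm6b (0.30 ± 0.0576). Clk1 was at 142 to 173 CPM against 110 to 137 CPM, without overlap. Of 22 cytosolic heat shock genes 4 rose, the cochaperones Dnajb5 (0.34 ± 0.0565), Dnajb1 (0.34 ± 0.0923) and Dnajb4 (0.16 ± 0.0397) and the factor Hsf2 (0.16 ± 0.0435). The inducible chaperones Hspa1a and Hspa1b did not pass (-0.19 ± 0.174 and -0.19 ± 0.199). The heat shock count was 1 without library 31C, without library 33C or without library 36B and 0 without code number 31, and the chromatin and RNA processing count was 0 without code number 35. Of 15 genes of nuclear factor kappa B and vascular inflammation Nfkbia and the endothelial early gene Apold1 (5.76 to 9.31 CPM against 2.62 to 4.49 CPM, 0.89 ± 0.157, adjusted p = 0.000897) rose and Lcn2 fell. Of 3 cold-inducible genes 0 passed in edgeR, with 1 at an unadjusted p under 0.05 and 1 called lower by DESeq2. Cirbp, the cold-inducible RNA-binding protein, was at 44.6 to 56.7 CPM against 57.6 to 71.2 CPM (-0.36 ± 0.106, adjusted p = 0.0755). In edgeR without the dorsal libraries labelled 6J with Lcn2 above 2 CPM, Cirbp passed as lower (-0.43 ± 0.0845, adjusted p = 0.00667).

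Few genes of channels and receptors passed. The lists here held 27 potassium channels, 14 GABA-A subunits, 16 chaperones of the endoplasmic reticulum and 13 messenger RNAs of the mitochondrial genome. In each, 0 passed in DESeq2 or in the edgeR fit of all 36 dorsal libraries. Members at an unadjusted p under 0.05 numbered 4, 1, 0 and 4, beside 14.6% of all genes. The medians of these lists were -0.06, 0.01, 0.13 and -0.19. Of 26 glutamate receptor genes 2 fell, beside 0.473% of all genes. Cacng8, a TARP subunit that brings AMPA receptors to the synapse, was at 70.2, 78.9 and 88.2 CPM against 85.7, 100 and 111 CPM, with a small overlap (-0.32 ± 0.0678, adjusted p = 0.00605). Grik5, a kainate receptor subunit, was at 209 to 237 CPM against 240 to 269 CPM (-0.19 ± 0.0511, adjusted p = 0.0475). The AMPA subunit Gria1 (-0.20 ± 0.059, adjusted p = 0.0761) and the NMDA subunit Grin1 (-0.19 ± 0.0555, adjusted p = 0.0709) missed the threshold. Without the 6 libraries labelled 6J with Lcn2 above 2 CPM, 4 of the cue and 2 of the home cage group, 0 glutamate receptor genes passed. Cacng8 was then at -0.29 ± 0.0754 (adjusted p = 0.06) and Grik5 at -0.19 ± 0.0565 (adjusted p = 0.107). The same edgeR fit called the potassium channel gene Kcnj2 (-0.70 ± 0.159, adjusted p = 0.0287) and the mitochondrial mt-Nd3 (-1.16 ± 0.254, adjusted p = 0.0178) lower.

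The genes that fell were fewer. Nrde2, a nuclear RNA surveillance factor, had the smallest p of them, at 13.5, 14.6 and 15.3 CPM after shock and cue and 16.8, 19 and 20.1 CPM in the home cage (-0.38 ± 0.0652, adjusted p = 0.000629). Map10, a microtubule-associated protein, was at 3.48, 4.03 and 4.14 CPM against 4.45, 5.26 and 6.71 CPM (-0.50 ± 0.0872, adjusted p = 0.000686). Neither overlapped between groups. Ccdc177 (-0.28 ± 0.0505), the tRNA-modifying enzyme Lcmt2 (-0.44 ± 0.0858), the amino acid transporter Slc38a5 (-0.64 ± 0.135), the synaptic adhesion protein Lrfn3 (-0.23 ± 0.0491), the Wnt regulator Frat1 (-0.31 ± 0.0672) and the non-coding Lncppara (-0.54 ± 0.115) also fell without overlap. Lncppara contains the genes of let-7b and let-7c-2, whose mature forms were not measured.

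Several low transcripts lie in or across other genes. On the same strand their reads cannot be told apart from those of the neighbour. For opposite strands this depends on the strand setting of the counting, which is not given. D330025C20Rik (-0.998 ± 0.179) overlaps Kcng2 on the opposite strand, Gm43909 (-0.91 ± 0.194) overlaps the clock gene Bhlhe41 on the opposite strand, Gm37310 (-0.93 ± 0.182) lies on the strand of the astrocyte glutamate transporter Slc1a3, and the rising Gm38340 (1.37 ± 0.358) on the strand of Tshz3. The endothelial factor Sox18, the 1 marker of a cell type that passed, was at 3.45 to 6.31 CPM against 5.83 to 8.25 CPM (-0.50 ± 0.123, adjusted p = 0.0246). Over the 14 endothelial markers the summed level was 391 to 443 CPM after shock and cue and 407 to 491 CPM in the home cage, where libraries 35A and 35B, also the ones with high Lcn2, stood at 490.6 and 490.3 CPM and the other 4 at 406.6 to 421 CPM. Without the 6 libraries with Lcn2 above 2 CPM Sox18 was at -0.38 ± 0.119 (adjusted p = 0.128), and the part of endothelial RNA in its fall was not tested. Of 18 Atf4 and amino acid genes 1 fell, beside 0.473% of all genes, and 0 rose. The member that fell was Slc7a5, an amino acid transporter (-0.21 ± 0.0535, adjusted p = 0.0364). It did not pass when 31A, 31B, 31C, 33A, 33C, 35A, 36A or 36C was left out.

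The large falls of Lcn2 and Lrg1 rested on few libraries. Lcn2, which encodes the acute-phase protein lipocalin 2, was at 0 to 0.107 CPM in the 6 shock and cue libraries. In the home cage it was at 5.4 CPM in library 35A and 13.3 CPM in library 35B and at 0.0312 to 0.18 CPM in the other 4, which overlap the shock and cue range. The log2 fold change was -5.67 ± 1.4 (adjusted p = 0.0298), and without the 6 dorsal libraries labelled 6J with Lcn2 above 2 CPM (these 2 and 4 of the cue group, which share the estimate of the spread) it was -1.02 ± 0.734 (adjusted p = 0.642). Lrg1, an acute-phase glycoprotein, was at 4.16 and 5.49 CPM in the same 2 home cage libraries and 0.741 to 1.12 CPM in the other 4, against 0.336 to 0.754 CPM after shock and cue. Its log2 fold change of -1.91 ± 0.468 (adjusted p = 0.0281) became -0.63 ± 0.249 (adjusted p = 0.282) without the 6 libraries. The low counts of 2 more genes overlap between groups and are uncertain: Gm28439, a pseudogene of mitochondrial sequence, whose reads can belong to the mitochondrial genome (-1.51 ± 0.337), and the transfer RNA gene mt-Te (-1.50 ± 0.372). Without the 6 libraries Gm28439 was at -1.219 ± 0.332 (adjusted p = 0.0758) and mt-Te at -1.875 ± 0.347 (adjusted p = 0.00404).

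Leaving out those 6 libraries lowered the number of passing genes from 345 to 178, 124 higher and 54 lower, of which 143 were among the 345. The rapid transcription factors kept 17 rising members and a median of 0.49, and Egr2 (3.28 ± 0.274), Fos (2.45 ± 0.297) and Arc (1.74 ± 0.149) kept their sizes. The feedback list again had 9 rising members, the glucocorticoid list 8 and the synaptic list 9. In the glucocorticoid list Sgk1 no longer passed (0.41 ± 0.104, adjusted p = 0.0513), while Tsc22d3 did (0.29 ± 0.0615, adjusted p = 0.0139). The rise of Egr2, Fos and Arc was as large without the libraries with high Lcn2.

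The cue alone gave a separate group of 6 libraries from the same region and label, and shock with the cue was compared with it directly. Of 19647 genes 0 passed in edgeR (0% called, smallest adjusted p = 0.12), with 1896 (9.65%) at an unadjusted p under 0.05. DESeq2 called 3, Lcn2, Ch25h and Serpina3f, all lower after shock and cue, and Serpina3f also passed when low counts were not filtered. In the cue group 4 libraries held Lcn2 at 7.93 to 20.5 CPM. For all 12 rising genes with the smallest p the 95% interval of shock and cue minus cue included 0, and these differences ran from -0.11 to 0.23 on the log2 scale. Arc was at a median of 379 CPM after the cue and 360 CPM after shock with the cue, and the interval of the difference was -0.35 to 0.13. For Egr2 it was -0.47 to 0.29 and for Fos -0.40 to 0.48, which leaves room for a difference of about that size in either direction. The 2 comparisons with the home cage share its 6 libraries. Side by side, cue minus home cage was 1.85 ± 0.122 for Arc, 3.18 ± 0.222 for Egr2 and 2.43 ± 0.24 for Fos.

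**Figure D5:**
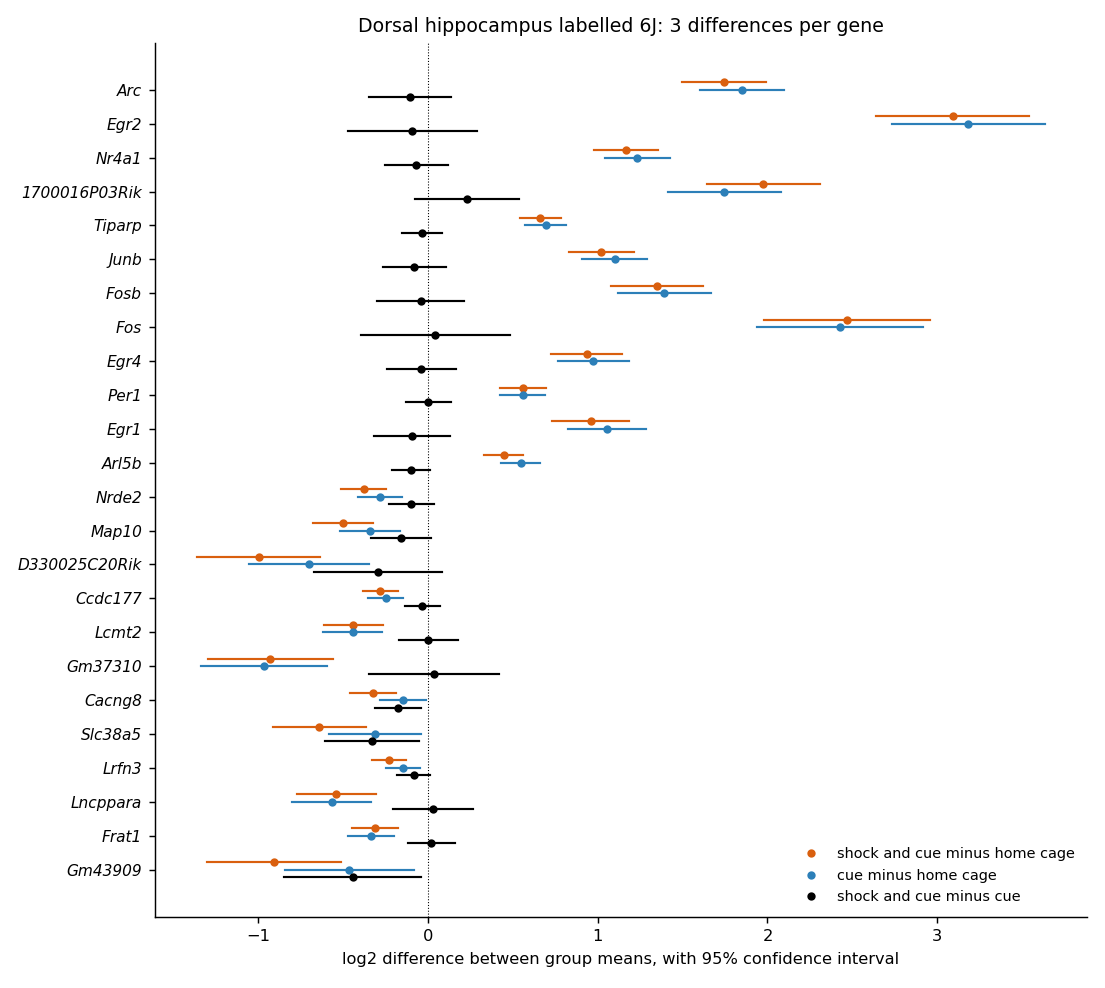
Log2 difference between group means with its 95% interval for the 12 rising and the 12 falling genes with the smallest p. Orange is shock and cue minus home cage, blue cue minus home cage, and black shock and cue minus cue; the black intervals include 0 for all 12 rising and 9 of the 12 falling genes.

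Several genes had higher medians after the cue alone than after shock with the cue, although none of these differences passed. Sgk1 was at a median of 107 CPM after the cue and 84.1 CPM after shock with the cue, Dusp6 at 96.7 and 76.5 CPM, and Errfi1 at 50.8 and 42.4 CPM. Fkbp5 was at 65.7 CPM after the cue, 51.7 CPM after shock with the cue and 61 CPM in the home cage. Its unadjusted interval for shock and cue minus cue was -0.51 to -0.15. Ccn1 lay the other way, at 4.13 CPM after the cue and 5.31 CPM after shock with the cue (interval 0.08 to 0.64). Homer1-205 was at 9.84, 10.6 and 11.3 CPM after the cue, a difference of 0.15 ± 0.32 from shock with the cue.

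The response was next compared with the same contrast in the libraries labelled 6NJ and in the ventral hippocampus, by testing the difference between responses. Against dorsal libraries labelled 6NJ 0 of 19647 genes passed (0% called, smallest adjusted p = 0.436), and 860 (4.38%) had an unadjusted p under 0.05. Against the ventral hippocampus labelled 6J 0 of 20255 passed (0% called, smallest adjusted p = 0.994), and 989 (4.88%) had an unadjusted p under 0.05. DESeq2 called 0 in both. The test between regions and its intervals did not pair the dorsal and ventral libraries of a code. With the code as a replicate block in edgeR, 0 genes passed between regions (smallest adjusted p = 0.394). For the 12 rising genes the response labelled 6NJ minus that labelled 6J ran from -0.27 to 0.16, with a median of -0.19. Arc rose by 1.57 under the label 6NJ and 1.498 in the ventral hippocampus, beside 1.74 here, Fos by 2.20 and 2.26 beside 2.47, and Egr2 by 2.90 and 2.73 beside 3.09. Nr4a1 had unadjusted intervals below 0 in both tests, at -0.54 to -0.01 against 6NJ and -0.64 to -0.18 against the ventral region, and neither passed. Among the 12 falling genes with the smallest p the largest such difference was that of D330025C20Rik, at 1.06 on the log2 scale (adjusted p = 0.436). Gm28439, among the largest falls, differed by 2.16 ± 0.48 (adjusted p = 0.436). These tests do not show that the responses are alike: the intervals for the 12 rising genes reached from -0.95 to 0.55 between labels and from -0.91 to 0.37 between regions.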

How the data were processed

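Messenger RNA of the 12 dorsal libraries and the other 60 libraries of the series was sequenced as 75 bp single-end reads from stranded libraries, per the labels' protocols. The deposited gene table held whole-number read counts for 55401 genes, and a deposited transcript table held estimated counts for 119414 transcripts, neither of them scaled to depth. HISAT2, featureCounts, kallisto, FastQC, DESeq2 and the build GRCm38 are named per the submitters' processing notes, without versions, and the sources used here name no strand setting or filter. Reads that fit several genes can be lost or split, so overlapping genes, pseudogenes and mitochondrial transfer RNA genes are uncertain. Symbols matched 55141 genes. Coordinates came from GENCODE vM21, in which 54821 genes had the same span as in the count table.

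Counts of the 36 dorsal libraries, in 6 groups, were fitted together with edgeR 4.0.16 in R 4.3.3 (TMM, filterByExpr, robust quasi-likelihood F-test), with 1 mean a group and no covariate, so that groups shared 1 estimate of the spread (common biological coefficient of variation 0.111). All 72 libraries were fitted for the contrast of regions. Every adjusted p is Benjamini-Hochberg over all features tested, and comes from edgeR unless another tool is named. Estimated counts were rounded and tested likewise. CPM is per library total scaled by TMM, SE is the log2 fold change divided by the square root of F, and intervals are 95%. The fit was tested on simulated data.

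The named genes were the 12 higher and 12 lower with the smallest p, the 6 higher and 6 lower with the largest fold and a mean of at least 1 CPM, and members of the 16 lists of function and 16 lists of markers. Serpina3f was named after its values were seen. Members, lists and tests were chosen with earlier results of these data known. No library was taken for a copy: the lowest chi-square per degree of freedom among 30 pairs within the 2 groups was 4.55 (median 17.05). Alternatives were RLE size factors, other low-count filters, DESeq2 1.42.0, limma 3.58.1 voom with code numbers as random effects, a choroid plexus covariate, only the groups compared, a threshold of 0.01, and leaving out libraries or code numbers.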

Additional observations from a re-analysis of the deposited data

Results flagged for a closer look

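Among 122 groups of 6 values (the named genes and the summed lists in each of the 2 groups), 8 held a library whose gap to its nearest neighbour took a larger share of the group's range than the 95% critical value of Dixon's test for 6 samples. Chance flags about 1 in 20 such groups.

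In the home cage, Tiparp was at 21.3 CPM in library 36C, with the next library at 18.2 CPM (gap 0.705 of the range). Summed clock genes were at 1677 CPM in 36A beside 1554 CPM (0.676). Summed CA2 and CA3 markers were at 1389 CPM in 35A beside 1232 CPM (0.646), and summed ependymal markers at 53.03 CPM in 36B beside 32.86 CPM (0.803).

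After shock and cue, Arl5b, an ADP-ribosylation factor-like GTPase, was at 46.5 CPM in library 31A beside 40 CPM (0.65 of the range). Lrfn3 was at 21.1 CPM in 31C beside 19.4 CPM (0.773). Summed potassium channels were lowest in 33C, at 2821 CPM beside 2992 CPM (0.629), and summed thalamus and habenula markers highest there, at 242.6 CPM beside 171.1 CPM (0.642). Tiparp and Arl5b did not overlap between the groups with these libraries included.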

How the results depend on the processing

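The 345 genes of the comparison with the home cage became 128 at a threshold of 0.01, 205 with no low-count filter, 217 with only the groups compared, 178 without libraries with Lcn2 above 2 CPM, and 56, 106, 83 and 198 without code number 31, 33, 35 or 36. Leaving out 1 library gave 213 to 318. Other settings gave 298 to 511, DESeq2 giving 511. The 147 transcripts became 239 with a mean CPM of at least 1, 636 with DESeq2, 42 with only the groups compared and 71 without libraries with Lcn2 above 2 CPM. The causes were not tested; fits with fewer libraries have less information. Shock and cue minus cue gave 1 gene with no low-count filter and 3 with DESeq2, and 0 otherwise. The differences between labels and between regions gave 0 in every setting run, including the code as a replicate block, which gave 0 between regions. The main test between regions did not take codes as pairs. A code's dorsal and ventral libraries correlated at -0.031 to 0.341, with 8 of 12 over 0.1. Of the 12 codes, 8 correlated best with their own code, so the fit with the code as a block is to be read beside the main one. Over 29 named genes and 13 settings, 311 of 373 calls kept their side of the threshold, 62 missed it and 0 reversed; with 1 library left out, 319 of 348 kept it and 29 missed it, all among Lcn2, Lrg1, Gm38340, Gm28439 and mt-Te. At 32012867 to 37272920 counts a library, genes under about 1 CPM rest on few reads, and small differences in them can be missed.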
